A study of Mus musculus with 4 samples.

Results

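Expression of 10 circadian clock genes was examined in the aorta of female mice lacking apolipoprotein E, a protein that clears lipoprotein remnants from blood. The genes were Per1, Per2, Per3, Cry1, Arntl (also called Bmal1), Clock, Nr1d1, Nr1d2, Dbp and Tef, and every probe set whose platform annotation names exactly 1 of them was taken, with no regard to its signal. These were 18 of 22626 probe sets, and 10 of the 12393 genes named by the annotation. The study set C3H/HeJ apoE-/- mice (C3H below) on Western diet and on chow beside C57BL/6 apoE-/- mice on Western diet and on chow. All were 6 weeks old, were weaned onto chow at 3 weeks, and ate the Western diet or further chow for the 2 weeks from 4 weeks of age. The deletion of Apoe was thus shared by the 4 groups, and no wild type was analysed here. Each group had 1 array. The sources used here do not say whether that RNA came from 1 animal or a pool, nor at what time of day the aortas were taken.

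The circadian clock is a feedback loop of transcription that runs in nearly every cell, the smooth muscle and endothelium of arteries included, and its transcripts rise and fall over the day. CLOCK and BMAL1, the product of Arntl, bind E-boxes and switch on the Per and Cry genes, whose products then inhibit CLOCK and BMAL1. The same pair drives Nr1d1 and Nr1d2, which encode the repressors REV-ERB alpha and beta that act on Arntl, and Dbp and Tef, which encode PAR bZip factors that bind D-boxes. Where the loop runs, Arntl and its E-box targets Nr1d1 and Dbp peak at opposite times of day.

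The 250 bases before the start were searched for clock motifs. They are shown for Nr1d1, Nr1d2 and Dbp, whose brightest sets were higher on Western diet in both strains, for Per3, which was lower, and for Per1, which differed little. Sequences are from RefSeq (mouse build GRCm38.p6), which held such a stretch for 9 of the 10 genes. They are written 5′ to 3′ along the gene's own strand, and capitals mark motif matches found on either strand.
Nr1d1 (chr11:98775378-98775627, minus strand): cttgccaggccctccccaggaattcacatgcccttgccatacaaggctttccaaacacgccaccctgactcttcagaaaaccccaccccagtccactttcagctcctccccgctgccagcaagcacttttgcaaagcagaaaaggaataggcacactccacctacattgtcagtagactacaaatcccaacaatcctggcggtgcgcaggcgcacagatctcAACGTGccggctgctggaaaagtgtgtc
Nr1d2 (chr14:18239107-18239356, minus strand): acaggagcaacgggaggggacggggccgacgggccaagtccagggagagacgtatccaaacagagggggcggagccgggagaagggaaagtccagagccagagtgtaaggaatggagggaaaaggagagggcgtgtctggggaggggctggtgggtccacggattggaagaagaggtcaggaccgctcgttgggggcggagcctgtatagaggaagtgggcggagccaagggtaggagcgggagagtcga
Dbp (chr7:45704997-45705246, plus strand): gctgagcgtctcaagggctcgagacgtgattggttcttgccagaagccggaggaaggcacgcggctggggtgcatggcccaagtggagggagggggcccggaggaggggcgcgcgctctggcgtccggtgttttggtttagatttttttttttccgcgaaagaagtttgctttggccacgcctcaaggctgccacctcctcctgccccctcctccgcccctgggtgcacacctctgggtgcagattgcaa
Per3 (chr4:151044666-151044915, minus strand): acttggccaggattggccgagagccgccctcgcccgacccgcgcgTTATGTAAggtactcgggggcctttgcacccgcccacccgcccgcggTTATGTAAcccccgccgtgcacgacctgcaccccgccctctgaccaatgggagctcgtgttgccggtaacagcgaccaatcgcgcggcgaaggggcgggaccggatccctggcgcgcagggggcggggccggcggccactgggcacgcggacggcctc
Per1 (chr11:69098699-69098948, plus strand): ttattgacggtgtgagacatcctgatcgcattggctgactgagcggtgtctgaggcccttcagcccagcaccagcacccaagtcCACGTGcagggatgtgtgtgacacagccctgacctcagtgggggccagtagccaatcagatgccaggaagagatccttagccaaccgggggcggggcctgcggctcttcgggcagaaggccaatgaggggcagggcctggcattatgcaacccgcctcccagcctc

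Per1 has 1 E-box (CACGTG, a palindrome) 166 to 161 bases before this start, Nr1d1 has 1 variant E-box (CACGTT, read on the opposite strand) 28 to 23 bases before its start, and Per3 has 2 D-boxes (TTATGTAA) at 205 to 198 and 158 to 151 bases. Dbp and Nr1d2 hold none of the searched letters in these windows. An E-box was found before 3 of the 9 genes (Cry1, Per1 and Tef), in 4 of their 14 promoters, against 6.02% of 32851 promoters of the same length. CACGTT was found before Cry1 and Nr1d1 (3.85% of all promoters), a D-box (TTATGTAA or TTACGTAA) before Per3 (0.931%), and the core of a ROR element (TAGGTCA or TGGGTCA), to which REV-ERBs bind, before none of them (5.38%). No motif overlapped another. A match describes these letters and is not a bound site.

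Signals below are the deposited intensities after quantile normalization. A signal is called above the floor over 83.6, the 40th percentile of all values, and a fold against a signal under it is given as "at least", with that array raised to the floor. Of the 72 member values, 53 were above the floor, and 9 of the 18 probe sets, from 8 genes, were above it on every array. Probe sets for bacterial transcripts, which mouse RNA lacks, read 2.9 to 126.8 on the deposited scale. The highest of these was 78.5 to 126.8 depending on the array. On every array, 8 member probe sets exceeded the highest bacterial signal of that same array. They were the single sets of Per1, Arntl and Nr1d1 and 1 set each of Per3, Clock, Nr1d2, Dbp and Tef. The aortic label was borne out by smooth muscle genes, with 14 of 14 contractile markers above the floor on all arrays, and by 10 of 11 endothelial markers. Heart muscle genes differed by strain, with summed signals over 10 markers of 859 on C3H Western and 999.6 on C3H chow, against 14982 on C57BL/6 Western and 19277 on C57BL/6 chow. All 10 were above the floor on both C57BL/6 arrays, but only 2 on both C3H arrays, so the C3H sums include signals under the floor. The C3H chow array stood apart, with hybridization controls 1.72-fold above the other arrays, an actin 3′/5′ ratio of 2.28 (1.63 to 1.83 elsewhere) and correlations with the others of 0.868 to 0.904 across 8740 probe sets, against 0.913 to 0.931 among the rest. It enters every strain difference on chow and every C3H diet response.

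**Figure D1:**
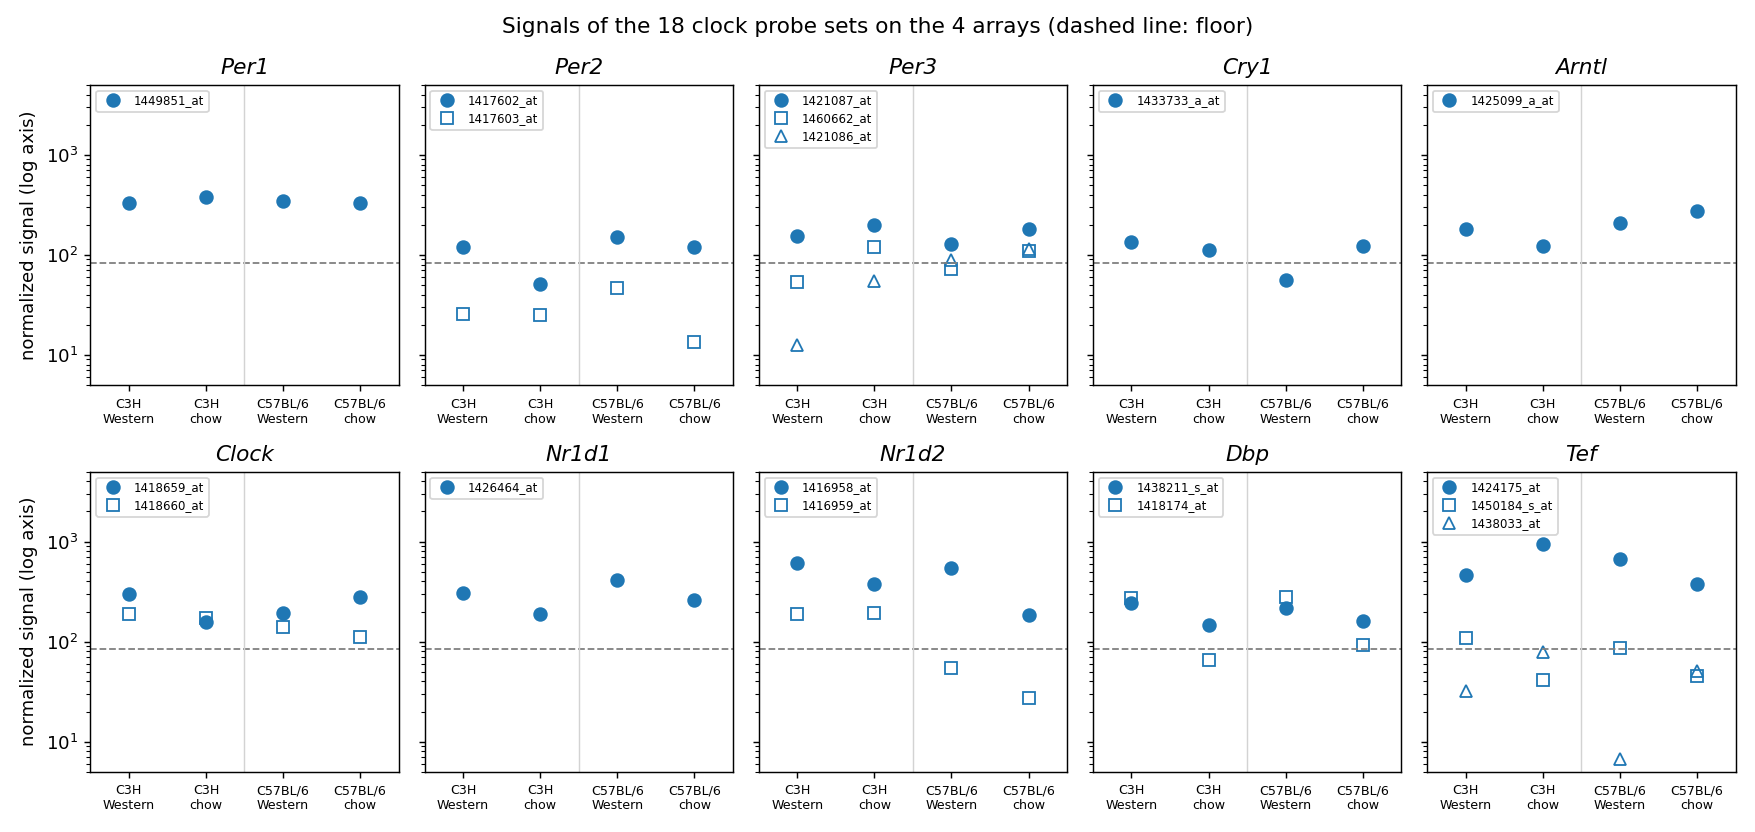
Normalized signal (log axis) of the 18 clock probe sets on the 4 arrays, one panel per gene, with filled points for the probe set of highest mean signal, open points for further sets and a dashed line at the floor of 83.6. Both Dbp sets and the brighter Nr1d2 set stand higher on the Western array of each strain, Per1 stays between 327 and 379, and levels cannot be compared between probe sets or panels.

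Dbp, an output gene of the clock, had the largest diet responses that could be given among the members. Its probe set 1418174_at had signals of 272 on C3H Western, against 65.1 on C3H chow, and of 279.7 on C57BL/6 Western, against 92.3 on C57BL/6 chow. Both Western arrays were thus well above both chow arrays, and the Western signals of the strains nearly coincided. The difference was at least 3.25-fold in C3H, where the chow signal lay under the floor, and 3.03-fold in C57BL/6, the 38th highest of 10914 probe sets measured on both arrays of that strain. The C57BL/6 chow signal, 92.7 as deposited, was above the floor but under the highest bacterial probe set of that array (112.7). Both folds of this set thus start from chow signals in the range of transcripts that mouse RNA lacks. The second Dbp set, 1438211_s_at, whose suffix marks probes shared by more than 1 transcript, read 241 on C3H Western and 146 on C3H chow, and 215 on C57BL/6 Western and 159.8 on C57BL/6 chow. It was 1.65-fold and 1.35-fold higher on Western diet in C3H and C57BL/6, so both sets pointed the same way with unequal sizes (log2 0.43 by this set and 1.60 by the other in C57BL/6). For scale, the pooled SD among sets of 1 gene was log2 0.58 for the diet response in C3H and 0.51 for that in C57BL/6 (2105 and 2197 genes).

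The REV-ERB genes were also higher on Western diet in both strains. Nr1d1 (1426464_at) had signals of 308 on C3H Western and 188 on C3H chow, and of 416 on C57BL/6 Western and 258 on C57BL/6 chow. Its response was nearly equal in the strains, 1.64-fold in C3H and 1.61-fold in C57BL/6. Nr1d2 (1416958_at) had signals of 612 on C3H Western and 379 on C3H chow, and of 548 on C57BL/6 Western and 184 on C57BL/6 chow. It was 1.61-fold higher in C3H and 2.98-fold higher in C57BL/6, there the 41st highest of 10914. The further Nr1d2 set, 1416959_at, read 190.1 on C3H Western and 195 on C3H chow, showing no such difference, and lay under the floor on both C57BL/6 arrays (55.0 and 27.6 on Western and chow). Among the 9 member sets above the floor on every array, Nr1d1 and this first Nr1d2 set were at least 1.5-fold higher in both strains, as were 2.25% of all 8740 such probe sets. At 2-fold in both strains 0 of the 9 passed, as did 0.263% of all.

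Macrophage markers as a set were also higher on Western diet in both strains. Of 12 on the array, 8 were above the floor throughout, Itgam was under it on all arrays, and Mpeg1 was under it on both chow arrays. Their summed signals were 6197.75 on C3H Western and 3583.23 on C3H chow, and 4803.27 on C57BL/6 Western and 3876.68 on C57BL/6 chow. With centring on the mean of the arrays, their median log2 signal was 0.46 and -0.23 on C3H Western and chow, and 0.02 and -0.23 on C57BL/6 Western and chow. Dbp 1438211_s_at stood at 0.37 and -0.35, and at 0.21 and -0.22 on the same arrays. The REV-ERB genes had other profiles, with Nr1d1 at 0.13 and -0.58, and at 0.57 and -0.12. Nr1d2 1416958_at stood at 0.65 and -0.05, and at 0.49 and -1.09. At least 2-fold higher on Western diet were 3 of 8 measured macrophage genes in C3H and 1 of 9 in C57BL/6. Over all probe sets these shares were 6.4% and 3.79%. The part of macrophage RNA in the Dbp, Nr1d1 and Nr1d2 results was not tested.

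Among the repressors, Per3 was lower on Western diet. Its set 1421087_at had signals of 153 on C3H Western and 197 on C3H chow, and of 129 on C57BL/6 Western and 183 on C57BL/6 chow, 1.29-fold and 1.42-fold lower. A second set, 1460662_at, read 53.4 on C3H Western and 121 on C3H chow, and 72.9 on C57BL/6 Western and 110.4 on C57BL/6 chow. It was at least 1.45-fold and at least 1.32-fold lower, so the Western arrays were below the chow arrays by both sets. The C57BL/6 chow signal of this second set, 110.8 as deposited, was under the highest bacterial probe set of that array (112.7). The third set, 1421086_at, was under the floor on both C3H arrays (12.5 and 55.4 on Western and chow) and read 89.7 on C57BL/6 Western and 114 on C57BL/6 chow. Per2 (1417602_at) had signals of 119 on C3H Western and 50.7 on C3H chow, and of 152 on C57BL/6 Western and 119.6 on C57BL/6 chow. Only the C3H chow signal stood apart, and the differences were at least 1.42-fold higher in C3H and 1.27-fold higher in C57BL/6. Its other set, 1417603_at, was under the floor on all arrays (13.3 to 47.1).

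Per1, which besides the clock responds to glucocorticoids and cyclic AMP, differed least among the members with a set above the floor on all arrays. Its signals (1449851_at) were 327 on C3H Western, 379 on C3H chow, 342 on C57BL/6 Western and 328 on C57BL/6 chow. No pair compared here differed by more than 1.16-fold. Cry1 (1433733_a_at), the partner of the PER proteins, read 134 on C3H Western and 112 on C3H chow, and 55.6 on C57BL/6 Western and 122 on C57BL/6 chow. On Western diet it was 1.20-fold higher in C3H but at least 1.46-fold lower in C57BL/6, where the Western signal was the only one under the floor.

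**Figure D2:**
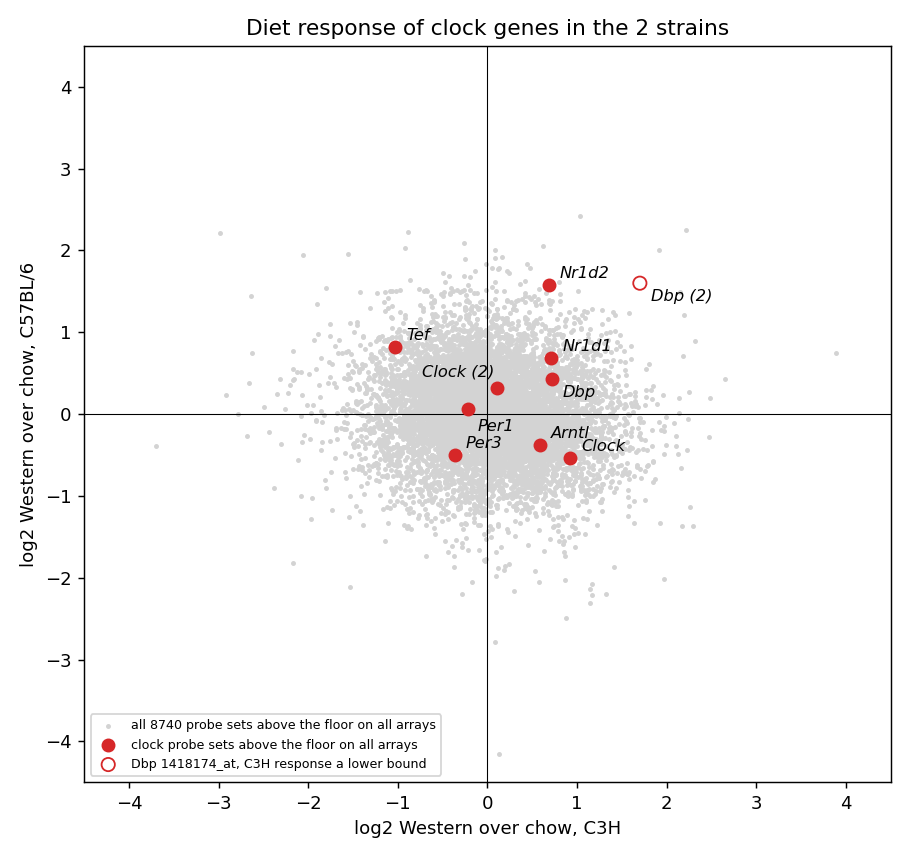
Log2 signal on Western diet over chow in C3H (horizontal) and in C57BL/6 (vertical) for the 8740 probe sets that exceeded the floor on every array (grey) and the clock probe sets among them (red, "(2)" marks a further set of a gene). Dbp 1418174_at (open circle) is added with its C3H chow signal raised to the floor. Nr1d1, Nr1d2, Dbp and the further Clock set lie in the quadrant higher in both strains, and Per3 in the one lower in both. Arntl, the brightest Clock set, Tef and, by little, Per1 lie where the strains went opposite ways.

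By their brightest sets, the activators had no diet response common to the strains. Arntl (1425099_a_at) had signals of 182 on C3H Western and 121 on C3H chow, and of 209 on C57BL/6 Western and 272 on C57BL/6 chow. On Western diet it was 1.5-fold higher in C3H but 1.30-fold lower in C57BL/6, and the chow arrays held its lowest and highest signals. Clock (1418659_at) read 297 on C3H Western and 157 on C3H chow, and 194 on C57BL/6 Western and 282 on C57BL/6 chow, 1.90-fold higher and 1.45-fold lower. The second Clock set, 1418660_at, read 187 and 173 on C3H Western and chow, and 139 and 111 on C57BL/6 Western and chow. By that set Clock differed by 1.08-fold in C3H and 1.25-fold in C57BL/6, both higher, so the opposite responses rest on the first set.

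Tef, the second PAR bZip gene, went the opposite way to Arntl and Clock when the brightest sets were compared. Its brightest set, 1424175_at, had signals of 459.6 on C3H Western and 936 on C3H chow, and of 672 on C57BL/6 Western and 381 on C57BL/6 chow. On Western diet it was 2.04-fold lower in C3H but 1.77-fold higher in C57BL/6. The set 1450184_s_at read 109.5 on C3H Western and 41.8 on C3H chow, and 86.4 on C57BL/6 Western and 45.3 on C57BL/6 chow, with both chow signals under the floor. By it Tef was at least 1.31-fold higher in C3H and at least 1.03-fold higher in C57BL/6, so the sets disagreed in C3H. The third, 1438033_at, was under the floor on all arrays (6.73 to 79.1).

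Counted at 2-fold with both arrays above the floor, 1 of 11 measured member sets passed in C3H, Tef 1424175_at (lower), where 12.3% of all probe sets passed either way. In C57BL/6, 2 of 12 passed, Dbp 1418174_at and Nr1d2 1416958_at (both higher), where 7.76% of all did. The median log2 response was 0.26 over the 11 sets in C3H and 0.33 over the 12 in C57BL/6, against 0.00 over all probe sets in each strain. Western signals were above chow signals without overlap for 5 of the 16 member sets that exceeded the floor on 2 or more arrays (Nr1d1, Nr1d2, both of Dbp and Tef 1450184_s_at), as for 15.7% of 14915 probe sets. They were below without overlap for the first 2 sets of Per3, as for 14.0% of all.

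No member passed a test for diet. In an additive limma fit over 14915 probe sets with terms for strain and diet, whose single residual degree of freedom is the strain-by-diet interaction, 0 of 16 member sets had an adjusted p under 0.05 for diet, as 0.0% of all probe sets did. The sets with an unadjusted p under 0.05 were Dbp 1418174_at (log2 1.83, SE 0.75, limma adjusted p = 0.9996, unadjusted 0.0242) and Nr1d2 1416958_at (log2 1.13, SE 0.42, limma adjusted p = 0.9996, unadjusted 0.0140), 2 of 16, where 2.46% of all probe sets had one. The fit took the Dbp signal of 65.1 as measured. With 2 arrays on each side, the smallest two-sided p an exact permutation test allows is 0.333.

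Strain differences past 2-fold were found on chow, for Arntl, Nr1d2 and Tef. These were 3 of 11 measured sets (2 with array medians made equal, where Nr1d2 was at log2 0.91), against 17.1% of all probe sets. Arntl was 2.24-fold lower in C3H (121 on C3H chow, 272 on C57BL/6 chow). Nr1d2 1416958_at was 2.06-fold higher (379 on C3H chow, 184 on C57BL/6 chow), and Tef 1424175_at was 2.46-fold higher (936 on C3H chow, 381 on C57BL/6 chow). Clock was 1.80-fold lower in C3H by 1 set and 1.56-fold higher by the other. Nr1d1 was 1.38-fold lower and Per2, with its C3H signal under the floor, at least 1.43-fold lower.

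On Western diet 0 of 12 measured sets reached 2-fold, where 8.41% of all probe sets did. Strain differences of the brightest sets were 1.12-fold higher in C3H for Nr1d2 and Dbp, 1.15-fold lower for Arntl, 1.35-fold lower for Nr1d1, 1.46-fold lower for Tef and 1.53-fold higher for Clock. Per2 was 1.28-fold lower in C3H, and Cry1 at least 1.61-fold higher. The further Nr1d2 set, 1416959_at, was higher in C3H on each diet, by at least 2.27-fold (Western) and at least 2.33-fold (chow), from C3H signals of 190.1 and 195 against C57BL/6 signals under the floor. The first Nr1d2 set differed by 1.12-fold on Western diet. In limma the strain term of 1416959_at, with the C57BL/6 signals under the floor taken as measured, had an adjusted p of 0.847. No member passed the strain term (0 of 16 at an adjusted p under 0.05, against 0.382% of all probe sets, and 0 of 16 at an unadjusted p under 0.05, against 5.85%).

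Over the 8 genes whose brightest set was above the floor on all arrays, the C3H chow array held the lowest signal of 4 (Arntl, Clock, Nr1d1 and Dbp) and the highest of 3 (Per1, Per3 and Tef). The same array held the lowest signal of 31.1% and the highest of 30.6% of all 8740 probe sets, so such extremes were common on it. Fold differences of diet response between the strains reached 2-fold for Clock 1418659_at (log2 1.47, C3H minus C57BL/6) and Tef 1424175_at (log2 -1.85), 2 of 9 sets, where 25.4% of 8740 probe sets did. The design of 4 unreplicated groups has no residual with which to test this difference.

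Genes of the cell types in the samples moved with some members. The 14 smooth muscle contractile genes, all above the floor, had summed signals of 118493 on C3H Western and 75068.4 on C3H chow, and of 119753 on C57BL/6 Western and 154792 on C57BL/6 chow. On the log2 scale, centred on each gene's mean over the arrays, their median stood at -0.45 on C3H chow and 0.40 on C57BL/6 chow. Of 11 matrix and fibroblast genes on the array (12 listed), 10 were above the floor on all arrays, and Pdgfra was under it on C3H chow. Their summed signals were 45488.3 on C3H Western and 23670.5 on C3H chow, and 33534.5 on C57BL/6 Western and 97333.5 on C57BL/6 chow. Their median centred signal was -0.84 on C3H chow and 1.05 on C57BL/6 chow. Between strains on chow 10 of 10 measured were at least 2-fold lower in C3H, against 8.94% of all probe sets. Arntl stood at -0.63 on C3H chow and 0.53 on C57BL/6 chow, and the gene whose centred profile was nearest to it among 5645 genes was Acta2, smooth muscle actin (Euclidean distance log2 0.05 over 4 arrays). The next were Plp2, Pdlim1, Npnt and Samd4 (0.08 to 0.10). Over only 4 arrays many profiles come close, and the part of smooth muscle or fibroblast RNA in the Arntl result was not tested. In a bulk tissue, fewer cells of a type and less RNA per cell cannot be told apart.

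The brightest Tef set in turn moved with fat genes on chow. The 9 brown adipocyte genes on the array (of 12 listed), all above the floor, had summed signals of 60952.4 on C3H Western and 89502.2 on C3H chow, and of 53739.5 on C57BL/6 Western and 45128.2 on C57BL/6 chow. Their median centred signal was 0.48 on C3H chow and -0.53 on C57BL/6 chow, where Tef 1424175_at stood at 0.70 and -0.60. The 10 general adipocyte genes on the array (of 12 listed), 9 of them above the floor throughout, had summed signals of 89764.7 on C3H Western and 132349 on C3H chow, and of 91808 on C57BL/6 Western and 68852.4 on C57BL/6 chow. Their median centred signal was 0.40 on C3H chow and -0.40 on C57BL/6 chow. On C57BL/6 Western the brown adipocyte genes stood at -0.19, the general ones at 0.06 and Tef at 0.22. On C3H Western they stood at -0.02, -0.10 and -0.33 in the same order. The Tef set 1450184_s_at was under the floor on both chow arrays (41.8 in C3H and 45.3 in C57BL/6) and showed no such strain difference. The part of fat RNA in the Tef result was not tested. The profile of Dbp 1438211_s_at was nearest to Ethe1, Smad1, Fas, Auh and Rrbp1 (distances 0.03 to 0.08), with Nr1d1 at rank 716 of 5645.

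**Figure D3:**
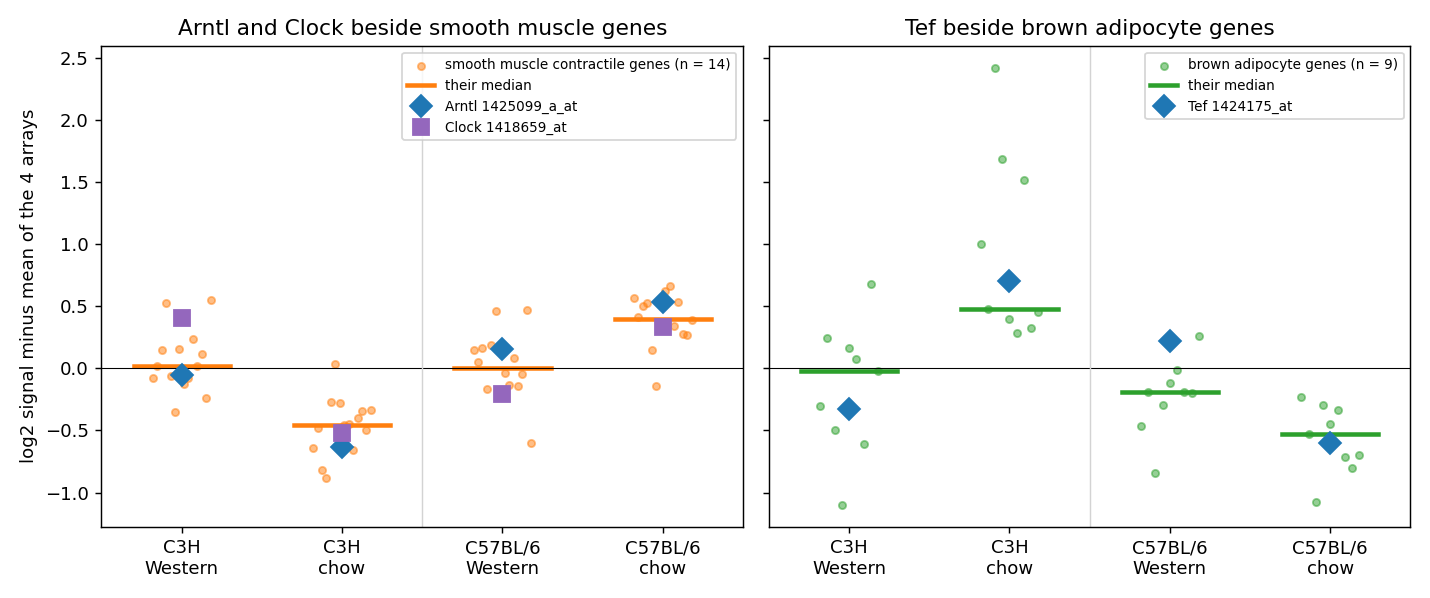
Log2 signal minus the mean of the 4 arrays for Arntl and Clock beside 14 smooth muscle contractile genes (left) and for Tef beside 9 brown adipocyte genes (right), with small points for single marker genes and bars for their medians. On chow Arntl sits at -0.63 in C3H and 0.53 in C57BL/6, beside marker medians of -0.45 and 0.40.

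Further genes of the clock numbered 32 on the lists drawn up, of which 26 are named on the array and 16 were above the floor on every array. On Western diet against chow, 0 of 18 measured were at least 2-fold higher in C3H and 3 were lower. These were Nfil3, a repressor at D-boxes (130 on C3H Western, 273 on C3H chow), Usp2, a ubiquitin protease under clock control (196 and 505) and Gsk3b, a kinase of clock proteins (119 and 314). Over all probe sets the shares past 2-fold were 6.4% upward and 5.95% downward. In C57BL/6, 1 of 19 was higher, the kinase gene Csnk1e (307 on Western, 136 on chow), and 1 was lower, Npas2, which encodes a substitute for CLOCK (111 on Western, 265 on chow), against 3.79% and 3.97% of all.

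Npas2 was lower on Western diet in C3H as well, with a Western signal of 62.2, under the floor, against 118 on chow. Its second set, 1421036_at, gave signals of 8.69 on C3H Western and 152 on C3H chow, and of 38.1 on C57BL/6 Western and 122 on C57BL/6 chow. Both Npas2 sets were thus lower on the Western array of each strain, by at least 1.42-fold and 1.82-fold in C3H and by 2.40-fold and at least 1.46-fold in C57BL/6. The limma p for diet, with signals under the floor taken as measured, was 0.217 and 0.106 unadjusted. Wee1, a cell cycle kinase gene with E-boxes known in mouse, was higher on Western diet in C57BL/6 by 1.73-fold (177 on Western, 102 on chow) and by at least 1.43-fold in C3H (119 on Western, 80.4 on chow). Its other set, 1416773_at, was at least 1.93-fold higher in C3H (161 on Western, 22.4 on chow) but 1.08-fold lower in C57BL/6 (165 on Western, 178 on chow).

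Between strains on chow, 4 of 18 further genes were at least 2-fold higher in C3H and 1 lower, against 8.2% and 8.94% of all probe sets. Higher were Csnk1e (3.14-fold), Alas1, the first enzyme of heme synthesis (2.69-fold), Usp2 (2.42-fold) and Nfil3 (2.33-fold), and lower was Npas2 (2.24-fold). On Western diet 0 of 20 were higher and 1 lower, Gpcpd1 (2.23-fold), against 4.17% and 4.24%. Sets of 1 gene disagreed here too, since by their second sets Alas1 was 1.41-fold lower in C3H, Csnk1e at least 1.29-fold lower and Npas2 1.24-fold higher.

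**Figure D4:**
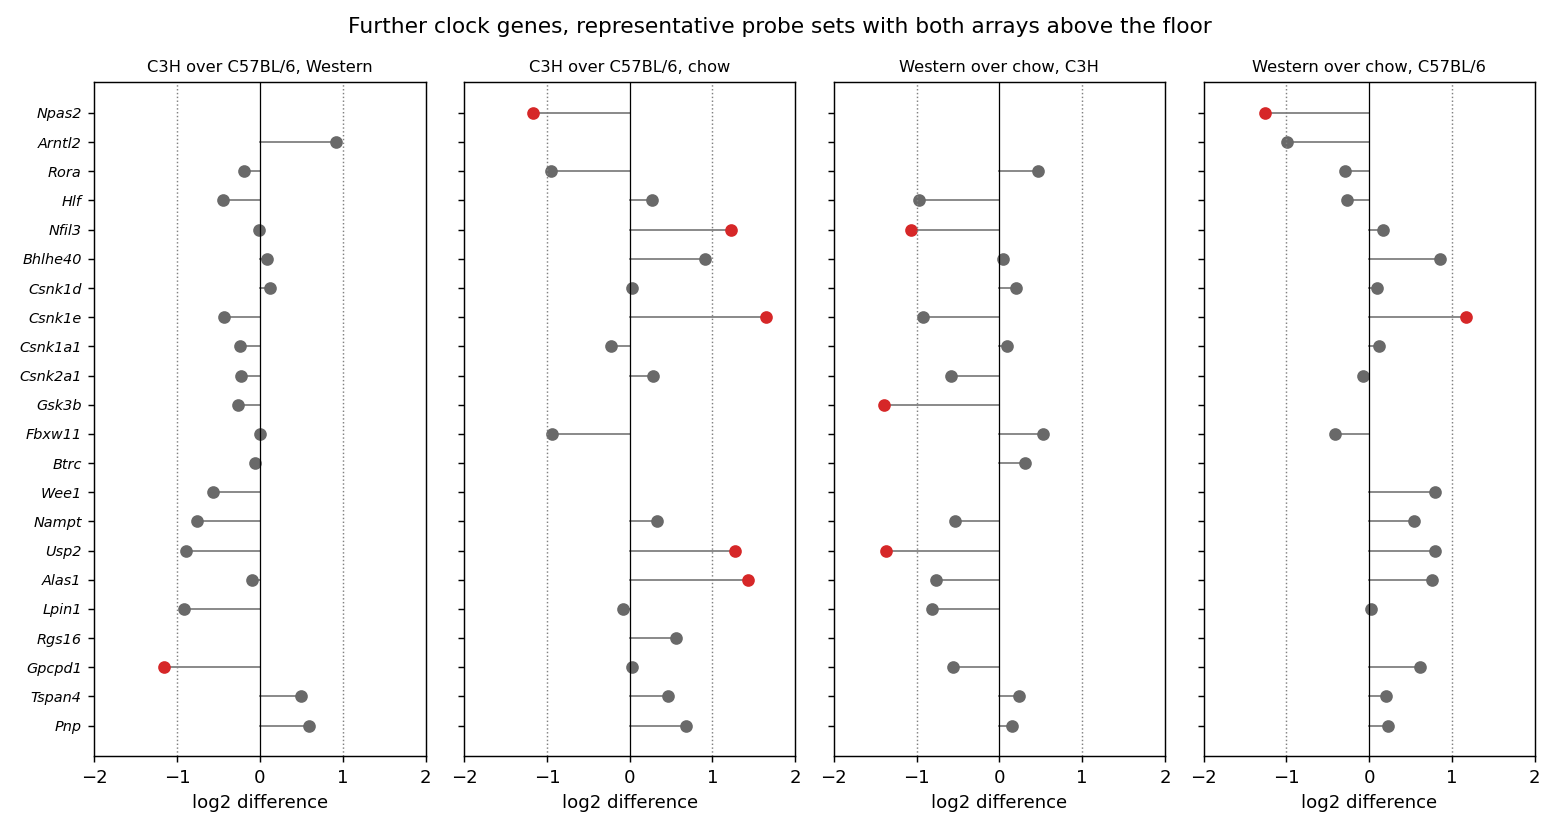
Log2 difference in 4 comparisons for further clock genes by their brightest probe set, shown if both arrays exceeded the floor, with red points at 2-fold or more and dotted lines at 2-fold. Nfil3, Csnk1e, Usp2 and Alas1 are higher in C3H on chow, and Npas2 is lower there and lower on Western diet in C57BL/6.

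Immediate early and stress genes respond within minutes to hours when tissue is handled. Their median log2 response to Western diet was -0.26 in C3H and -0.70 in C57BL/6. In C3H 0 of 21 were at least 2-fold higher and 5 lower, against 6.4% and 5.95% of all probe sets. In C57BL/6 0 of 19 were higher and 6 lower, against 3.79% and 3.97%. Between strains their median was 0.64 on chow and 0.86 on Western diet, higher in C3H. Per1 was near these medians for diet in C3H only, with log2 responses of -0.21 in C3H and 0.06 in C57BL/6. Its strain differences were 0.21 on chow, the same way as theirs but smaller, and -0.07 on Western diet. The part of handling in the members' values was not tested.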

How the data were processed

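Aortic RNA of 4 groups of mice was hybridised, each group to 1 array. According to the labels' protocols, total RNA was extracted with Trizol, of which 8 ug was labelled with biotin as cRNA and measured on Affymetrix arrays in a single colour. The authors deposited 1 linear intensity for each of 22690 probe sets. Their summarisation software, background step and scaling were not given in the sources used here. All deposited arrays have nearly 1 trimmed mean (250.11 to 250.12), with medians of 110.3 to 128.1. After removal of 64 control probe sets, log2 intensities were quantile normalized with limma 3.58.1 in R 4.3.3.

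Names come from the platform annotation, in which 20380 probe sets name 1 gene, 691 several and 1555 none here. The brightest probe set (highest mean log2 signal) stands for its gene in counts of genes. Pairs of arrays were compared at 2-fold with no test. For the limma fit, eBayes with a mean trend (prior of 17.3 degrees of freedom) and Benjamini-Hochberg adjustment at 0.05 were applied to 14915 probe sets that exceeded the floor on 2 or more arrays, after a check on simulated data. With 1 array per group, its p-values set each term against the strain-by-diet interaction, moderated by that prior. They do not measure a spread between replicates, and their precision is limited by the number of arrays.

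The members, the gene lists and the motifs were chosen with earlier results of these data known. All member probe sets are named, as are further clock genes past 2-fold and the 5 genes nearest in profile to Dbp and to Arntl. The second set of Npas2, Wee1 and the counts of groups without overlap were chosen after their values were seen. Settings varied were the normalization (none, equal medians, cyclic loess), the floor (25th percentile, 60th percentile, none), the fold (1.5, 3), the choice of probe set, and the mean trend in limma. Python 3.11.15 (numpy 2.4.6, pandas 2.3.3, matplotlib 3.10.9) did the remaining steps.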

Additional observations from a re-analysis of the deposited data

Results flagged for a closer look

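Brightest sets that exceeded the floor on every array were listed where the 2 strains responded to diet in opposite directions, or where the strain difference pointed opposite ways on the 2 diets. With 1 array per group none of these differences was tested. The response in C3H minus that in C57BL/6 was log2 -1.85 for Tef (-1.03 and 0.82), 1.47 for Clock (0.93 and -0.54), 0.96 for Arntl (0.58 and -0.38) and -0.27 for Per1 (-0.21 and 0.06). The same quantity, read as the strain difference (C3H minus C57BL/6) on Western diet minus that on chow, was listed for Tef (-0.55 on Western diet and 1.30 on chow), Clock (0.61 and -0.85), Per1 (-0.07 and 0.21) and Dbp 1438211_s_at (0.16 and -0.13, difference 0.29). The values for Per1 and Dbp are smaller than the pooled SD between probe sets of 1 gene for this quantity, 0.75 over 1675 genes. The further Clock set, 1418660_at, gave -0.21.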

How the results depend on the processing

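No paired analysis was possible because each group has 1 array, and for the same reason no replicate could be left out. Normalization moved the members little. Across deposited values, equal medians and cyclic loess, no log2 difference of a gene's brightest set moved by more than 0.22, and 2 changed sign, both with a size of 0.03. Deposited values or equal medians took the diet count in C3H from 1 set to 0, since Tef lies at the threshold, and equal medians took the strain count on chow from 3 to 2, without Nr1d2. The strain and diet terms of limma called 0 member sets under every alternative run. The count of differing responses was 2 with each of the other 3 normalizations, and no other floor, fold or unit was run for it. The count of sets past 2-fold depended on the floor. With the floor at the 25th percentile it was 5 of 16 for strain on chow (3 in the main setting), 2 of 15 for strain on Western diet (0) and 5 of 15 for diet in C3H (1), where 26.4%, 17.7% and 21.8% of all probe sets passed. With no floor these were 6, 4 and 7 of 18, and diet in C57BL/6 was 5 of 18 (2), where 45.6%, 38.2%, 42.4% and 38.6% of all passed. With the floor at the 60th percentile or 1 set per gene diet in C57BL/6 was 1, where 3.88% and 7.76% of all probe sets passed. At 1.5-fold the strain counts were 5 (chow) and 1 (Western), and the diet counts 5 (C3H) and 4 (C57BL/6), where 41.3%, 27.1%, 34.6% and 28.0% of all probe sets passed. At 3-fold they were 0 for strain on chow, 0 for diet in C3H and 1 for diet in C57BL/6. At that fold 4.0%, 1.8% and 0.834% of all probe sets passed. The median over a gene's sets moved 3 of 11 values by more than the SD between sets. Dbp in C57BL/6 was then 1.01, Clock between strains on chow -0.11 and its difference of responses 0.63.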

Other observations

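Genes switched on by glucocorticoids, hormones that set peripheral clocks and induce Per1, had larger median differences than Per1 except between strains on chow. There their median was log2 0.16 and Per1 stood at 0.21. All 10 listed genes were above the floor on every array. Between strains on Western diet, 5 of 10 were at least 2-fold lower in C3H and 1 was higher (4.24% and 4.17% of all probe sets), with a median log2 difference of -0.97, against 0.16 on chow (1 higher and 0 lower, against 8.2% and 8.94% of all). Their median diet response was -0.94 in C3H (0 higher, 3 lower, against 6.4% and 5.95% of all) and 0.19 in C57BL/6 (1 higher, 1 lower, against 3.79% and 3.97%). Fkbp5, a chaperone of the glucocorticoid receptor, had signals of 119 on C3H Western and 444 on C3H chow, and of 972 on C57BL/6 Western and 383 on C57BL/6 chow. Its further set, 1448231_at, read 178 and 106 on C3H Western and chow, and 449 and 328 on C57BL/6 Western and chow. The sets thus disagreed on the diet response in C3H, while both were lower in C3H than in C57BL/6 on Western diet, by 8.19-fold and 2.52-fold. Tsc22d3, a glucocorticoid-induced leucine zipper gene, was 1.83-fold lower in C3H on Western diet by its brightest set, with 2.24-fold lower and 1.27-fold higher by its others. Sgk1, a kinase gene induced by the same hormones, was higher in C3H by 1.30-fold on Western diet and 2.61-fold on chow.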
